A study of Mus musculus with 8 samples.

Results

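The swiprosins Efhd1 and Efhd2 were compared in cultured aortic smooth muscle cells with and without stabilised actin filaments. Both members of this gene pair were found by symbol among 19938 genes with a value, 2 of 19938, and each was measured by 1 probe set. Where a gene had several probe sets, the brightest over all 8 arrays was used, a choice that did not arise for either swiprosin. Efhd1 was singled out because its difference between the groups ranked among the largest, so its difference is given as a description and supports nothing. Efhd2 was added as its relative.

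The arrays hold RNA of primary smooth muscle cells grown from the aorta of C57Bl6 mice, used at passage 3 to 4. All cultures stayed for 24 h in DMEM with 10% FCS, 4 without addition (control) and 4 with 100 nM jasplakinolide, a sponge-derived cyclic peptide that holds actin in its filamentous form. Genotype alterations, age and sex are not stated in the labels, which do not say either whether replicates are separate cultures or animals, so the p-values measure only the spread between these samples. Values are log2 RMA expression levels, in which a difference of 1 is a doubling of the signal.

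Swiprosins are small calcium-binding proteins with a pair of EF-hands, the helix-loop-helix motif that also binds calcium in calmodulin, followed by a coiled-coil stretch. Efhd2, swiprosin-1, binds and bundles actin filaments, slows their severing by cofilin, and is best known from lymphocytes, macrophages and brain. Efhd1, swiprosin-2 or mitocalcin, is found at the inner mitochondrial membrane, where it is known as a calcium sensor for mitochondrial flashes, brief bursts of matrix activity, and it can bind actin as well. The comparison addresses how the transcripts of these smooth muscle cell cultures respond to actin stabilisation. Some markers of other cell types also gave signal on the arrays.

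The proximal promoters of the pair are shown because the genes share a protein architecture but differed in the size of their response. Each sequence is the 250 bases before the RefSeq transcription start in build GRCm38.p6, 5′ to 3′ on the strand of the gene, chr1:87264103-87264352 (plus strand) for Efhd1 and chr4:141874921-141875170 (minus strand) for Efhd2. Capitals mark matches to the motifs searched.
Efhd1: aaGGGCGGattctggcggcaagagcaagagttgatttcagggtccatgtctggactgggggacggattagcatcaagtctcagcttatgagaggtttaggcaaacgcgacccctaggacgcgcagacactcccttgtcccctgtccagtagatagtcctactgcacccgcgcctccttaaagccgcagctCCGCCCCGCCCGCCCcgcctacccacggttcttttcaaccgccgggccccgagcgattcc
Efhd2: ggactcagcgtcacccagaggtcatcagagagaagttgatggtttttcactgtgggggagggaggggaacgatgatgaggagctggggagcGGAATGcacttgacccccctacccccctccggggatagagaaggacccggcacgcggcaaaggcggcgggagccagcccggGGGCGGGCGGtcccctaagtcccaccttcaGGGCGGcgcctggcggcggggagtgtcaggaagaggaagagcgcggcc
On both strands a search was made for the CArG box bound by serum response factor, the GC box GGGCGG, the TATA box TATAAA, the TEAD motif CATTCC and the AP-1 motif TGANTCA. Efhd1 had 4 GC box matches, 3 of them overlapping one another, and Efhd2 had 3, of which 2 overlapped. A GC box was present in 32.7% of the 32851 RefSeq promoter windows of the same length. Efhd2 also had 1 TEAD motif, beginning 159 bases before the start on the opposite strand, and this motif was in 12.6% of the windows. Neither window held a CArG box (1.47% of windows), a TATA box (12.4%) or an AP-1 motif (6.75%). The windows had a GC content of 60.8% for Efhd1 and 67.2% for Efhd2, against a median of 52.4%. These matches are letters in a short window and do not show binding.

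Array medians lay between 7.30 and 7.39 log2. On the first principal component, with 43.6% of the variance, control 2 (13.1) and jasplakinolide 4 (20.1) lay highest. Controls 1 (-14) and 3 (-14.9) lay lowest, and the remaining arrays at -5.15 to 4.87. Results are also given without control 2 and jasplakinolide 4, but not without controls 1 and 3 together. Over all genes 154 changed (limma, Benjamini-Hochberg adjusted p under 0.05), 87 higher and 67 lower. The split was 132 higher and 167 lower after a further quantile normalization, 130 and 166 after cyclic loess, and 162 and 215 with the replicate number as a block. With 1 array left out it ranged from 35 higher and 8 lower without control 4 to 67 and 83 without control 2, and it leaned to the higher side without any 1 of the other 7 arrays (69.5% to 83.6% higher). All 8 smooth muscle markers were above 6.75 log2, the level below which 95% of 1015 olfactory receptor genes lay, taken as a guide to dim signal. So were all 10 endothelial and all 9 macrophage markers, the brightest being Emcn and Lyz2, and 4 of 6 fibroblast, 2 of 4 B cell and 3 of 6 neuronal and glial markers. The lowest macrophage marker was at 6.79 log2, close to the guide. A level above the guide does not by itself show that a cell type was present. Fewer cells of a type and less RNA per cell cannot be told apart in bulk RNA.

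Efhd1 rose with jasplakinolide. Its level was 7.92, 7.72, 7.80 and 7.59 log2 in controls 1 to 4 and 9.18, 8.92, 9.32 and 9.50 log2 in jasplakinolide arrays 1 to 4. The groups did not overlap, and the lowest treated array lay 0.996 log2 above the highest control, more than the range within the controls (0.33) or within the treated arrays (0.58). The means were 7.76 ± 0.14 and 9.23 ± 0.24 log2 (SD, n = 4 each), a log2 difference of 1.47 ± 0.12 (SE; 95% interval 1.21 to 1.74). This is 2.77-fold (2.31- to 3.33-fold) and the third largest rise among all genes. Of the pair, 1 of 2 passed the test over all genes, Efhd1, where 0.436% of all genes passed in that direction and 0.772% in either. As the gene was chosen from this comparison, nothing is read from that count.

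Efhd2 showed a small difference that did not pass. Its level was 10.33, 10.38, 10.38 and 10.27 log2 in controls 1 to 4 and 10.48, 10.42, 10.55 and 10.54 log2 in jasplakinolide arrays 1 to 4. The treated arrays were all above the controls, but the gap between the groups was 0.03 log2, smaller than the range within the controls (0.11) or within the treated arrays (0.13). Groups lay apart in this direction in 3.62% of all genes. The means were 10.34 ± 0.05 and 10.50 ± 0.06 log2 (SD, n = 4 each). The log2 difference was 0.15 ± 0.05 (SE; 95% interval 0.04 to 0.27), or 1.11-fold (1.03- to 1.20-fold), with a limma p of 0.0115 before adjustment and an adjusted p of 0.290. Before adjustment 8.87% of all genes had a p under 0.05. In absolute size 90.2% of genes differed by less than Efhd2. The interval, which is not adjusted for the number of genes, ends at 1.20-fold.

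**Figure D1:**
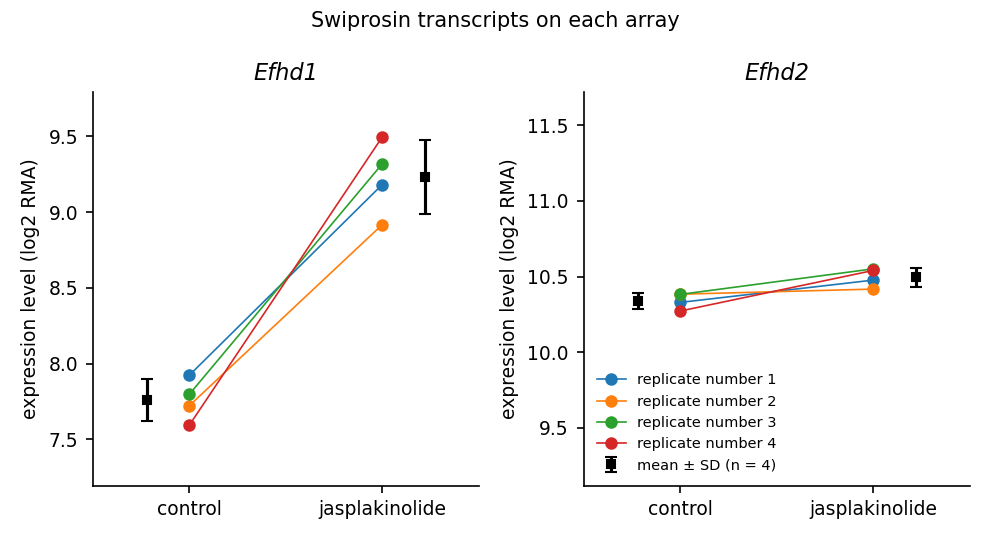
Expression level (log2 RMA, vertical axis) of Efhd1 and Efhd2 on each array; lines join arrays of the same replicate number, black squares and bars are the mean ± SD of 4 arrays, and both panels span the same number of log2 units. Efhd1 lies at 7.59 to 7.92 in control and 8.92 to 9.50 with jasplakinolide, whereas Efhd2 moves from 10.27 to 10.38 up to 10.42 to 10.55.

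The limma comparison above is unpaired, with no replicate term. For the within-pair differences, the replicate numbers were taken to pair the arrays (from the data, not the labels). For numbers 2 and 4 the data do not settle this. Across genes, deviations of control 2 correlated more with jasplakinolide 4 (0.52) than with jasplakinolide 2 (0.24). Within pairs 1 to 4, Efhd1 was higher by 1.26, 1.20, 1.52 and 1.91 log2 with jasplakinolide. Efhd2 was higher by 0.15, 0.03, 0.17 and 0.27 log2 in the same pairs. Both genes thus had their smallest within-pair difference in pair 2 and their largest in pair 4. The difference of Efhd1 exceeded that of Efhd2 by 1.11, 1.16, 1.35 and 1.64 log2 in pairs 1 to 4, and by 1.32 ± 0.11 log2 (SE) between the groups. No test of this gap is given, since Efhd1 was picked for its rise.

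Deviations from the group means showed how the pair varied apart from the treatment. Jasplakinolide 2 was the lowest treated array and control 4 the lowest control array for both genes. For Efhd1 these arrays lay 0.31 and 0.17 log2 below their group mean (deviations -0.31 and -0.17), and for Efhd2 0.08 and 0.07 below it (-0.08 and -0.07). Both genes deviated to the same side on 6 of 8 arrays, the others being control 1, where Efhd1 was high (0.16) and Efhd2 close to its mean (-0.01), and control 2 (-0.04 and 0.04). The deviations correlated with Pearson's r = 0.75 and Spearman's rho = 0.79 over the 8 arrays, a description only. Without jasplakinolide 2 and 4, the arrays farthest from the median for Efhd1, r was 0.54 over 6 arrays. Arrays share their normalization, and the deviations of Efhd2 are small.

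**Figure D2:**
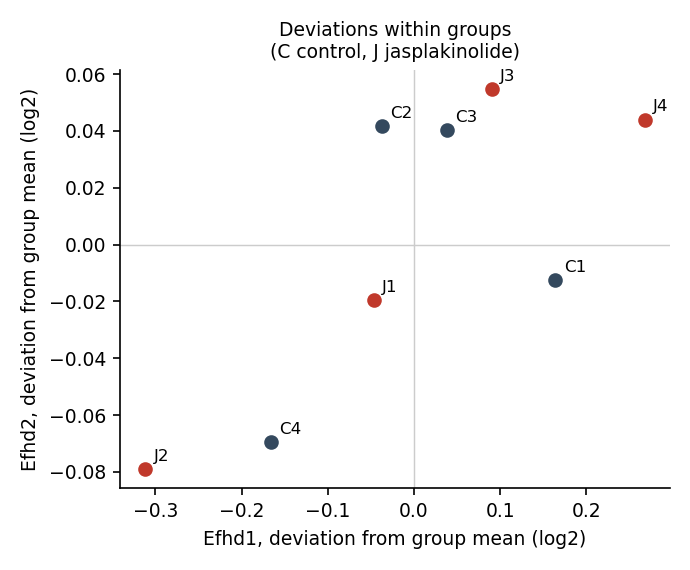
Deviation of Efhd1 (horizontal axis) and Efhd2 (vertical axis) from their group means in log2 units, 1 point per array (C control, J jasplakinolide, with the replicate number); the axes have different scales. Jasplakinolide 2 and control 4 lie at the lower left, with Efhd1 at -0.31 and -0.17.

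The genes whose levels followed Efhd1 most closely were ranked among 9718 named genes at or above the median level, by Pearson's r over the 8 arrays. Such an r mostly reflects the step between the groups, so the differences of these genes follow from their choice and are given without a test. The first was Fhl1, a LIM-only protein of muscle (r = 0.995), with a log2 difference of 0.31 ± 0.05 (SE), followed by Sync, the intermediate filament protein syncoilin (r = 0.994; 0.64 ± 0.06). Kcnmb1, an accessory subunit that tunes the BK potassium channel to calcium, came next (r = 0.994; 2.0 ± 0.13). Then came Sra1 (r = 0.992; 0.19 ± 0.04), Msrb1, a methionine sulfoxide reductase that can act on actin (r = 0.990; 0.56 ± 0.06), and the beta-tubulin Tubb6 (r = 0.990; 0.20 ± 0.04). In all, 86 of the ranked genes had an r over 0.95 with Efhd1 and 10 with Efhd2. Those closest to Efhd2 were the nucleotide sugar transporter Slc35b1 (r = 0.986; log2 difference 0.07 ± 0.04), the export pump Abcc1 (0.974; 0.22 ± 0.05), the dynactin subunit Dctn1 (0.964; 0.13 ± 0.04), Dpm3 (0.963; 0.14 ± 0.04), Metrnl (0.955; 0.08 ± 0.04) and Ccdc134 (0.954; 0.07 ± 0.04).

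Ranked on deviations from the group means, which hold no treatment step, the genes closest to Efhd1 over the 8 arrays were Surf4 (r = 0.957), Tnks1bp1 (0.943), Fhl1 (0.941), Tnrc18 (0.935), Zdhhc14 (0.933) and Emp3 (0.924). Fhl1 thus headed the list on levels and was among the 6 on deviations. The levels contain these deviations on the same 8 arrays, so the rankings are not independent. The top values among 9718 genes are also high by selection. Of these 6, Fhl1 (adjusted p = 0.0231) and the palmitoyltransferase gene Zdhhc14 (log2 difference 0.36 ± 0.06, SE; adjusted p = 0.0427) rose in the limma fit. With 1 array left out Fhl1 kept its call in 2 of 8 fits (adjusted p 0.0424 to 0.116) and Zdhhc14 in 0 of 8 (0.0599 to 0.166). The others differed by 0.01 (Surf4) to 0.23 log2 (Tnks1bp1) and did not pass. For Efhd2 the closest were Slc35b1 (r = 0.967), Abcc1 (0.964), Trmt2a (0.952), Zfp513 (0.940), Tyrobp, an adaptor of myeloid receptors (0.934), and Metrnl (0.932). None of these 6 passed in the limma fit (adjusted p 0.0831 for Abcc1 to 0.972 for Zfp513), though Abcc1 passed under some alternative settings.

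Genes for proteins that hold EF-hand domains and bind actin or the cortical cytoskeleton included 3 that rose. Not all of these EF-hands bind calcium: those of the dystrophin and dystrobrevin family are not known to. Of 16 such genes, 3 rose, none fell and 13 did not pass, where 0.436% of all genes rose, and the list's median log2 difference was 0.06, against 0.01 over all genes. At an unadjusted limma p under 0.05 there were 6 of 16, where 8.87% of all genes were. The list holds Dmd, already known from these arrays as a large rise, so its count is not independent evidence. Dmd, which encodes dystrophin, the link between cortical actin and the membrane, stood at 8.02, 7.61, 7.94 and 7.68 log2 in controls 1 to 4. In jasplakinolide arrays 1 to 4 it stood at 8.84, 8.80, 9.16 and 9.05 log2. The groups did not overlap, and the difference was 1.15 ± 0.11 log2 (SE; adjusted p = 0.00205).

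Aif1l, an actin-bundling relative of allograft inflammatory factor with EF-hands, was at 9.94, 9.92, 9.88 and 9.71 log2 in controls 1 to 4. In jasplakinolide arrays 1 to 4 it was at 10.30, 10.37, 10.29 and 10.37 log2. Every treated array lay above every control, and Aif1l rose by 0.47 ± 0.06 log2 (SE; limma adjusted p = 0.00872), or 1.38-fold. Dtna, the dystrophin-associated protein dystrobrevin alpha, rose by 0.36 ± 0.06 log2 (SE; adjusted p = 0.0427) with groups that did not overlap. Dmd and Aif1l passed in 8 of 8 fits with 1 array left out, whereas Dtna passed in 0 of 8 (adjusted p 0.0554 to 0.169). Named after their values were seen, the leukocyte plastin Lcp1 differed by 0.42 ± 0.11 log2 (SE; adjusted p = 0.188) and Swap70, a Rac-associated protein of B cells, by -0.26 ± 0.11 (0.486), and neither passed. The alpha-actinins Actn1 (0.07 ± 0.04) and Actn4 (0.04 ± 0.04), the EF-hand crosslinkers of smooth muscle actin, did not pass.

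Genes of mitochondrial calcium handling, the compartment of Efhd1, showed no member past the test. All 19 measured genes, among them the uniporter pore Mcu (-0.01 ± 0.05 log2, SE), its regulator Micu2 (0.05 ± 0.05) and the calcium-regulated carrier Slc25a24 (0.05 ± 0.06), had log2 differences between -0.09 and 0.11. Their median was 0.04, and 0 of 19 had an unadjusted limma p under 0.05, a share of 8.87% over all genes against which this and the following counts of that kind are to be read. The largest differences were those of the outer membrane channel Vdac2 (0.11 ± 0.06) and the sodium-calcium exchanger Slc8b1 (-0.09 ± 0.07). Of 11 genes of the permeability pore, membrane fusion and mitochondrial flashes none passed either, with a median of 0.00, and 1 had an unadjusted p under 0.05. That was Mfn2, mitofusin 2, which joins outer membranes of mitochondria. It stood at 10.70, 10.72, 10.72 and 10.63 log2 in controls 1 to 4, and in jasplakinolide arrays 1 to 4 at 10.92, 10.91, 10.94 and 10.89 log2. The groups lay apart, and the difference of 0.22 ± 0.04 log2 (SE), 1.16-fold, had an adjusted p of 0.0512, and of 0.0443 with the replicate block, under which 0.813% of all genes rose. Sod2, the mitochondrial superoxide dismutase, differed by -0.11 ± 0.05 log2 (SE) and did not pass.

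Among other calcium-binding sensors with EF-hands, none of 30 calmodulin-type genes and none of 16 S100 genes passed in the limma fit, with 2 and 0 of them at an unadjusted p under 0.05. Their median log2 differences were 0.01 and 0.00, with ranges of -0.33 to 0.15 and -0.07 to 0.11. Both lists hold several genes below the guide to dim signal, such as Efhb (control mean 4.38 log2) and S100a8 (5.41). For such genes a lack of change says little. Calm2, a calmodulin gene, differed by 0.15 ± 0.06 log2 (SE; adjusted p = 0.462). Gca, grancalcin, a penta-EF-hand protein of leukocytes, differed by -0.33 ± 0.07 log2 (adjusted p = 0.0916) and fell with the replicate block (adjusted p = 0.0260), under which 1.08% of all genes fell. The S100 genes with the largest differences were S100a7a (0.11 ± 0.06) and S100a9 (-0.07 ± 0.09). With 1 array left out they ranged from 0.06 to 0.14 and from -0.15 to -0.01, and S100a9 lay below the guide to dim signal. Of 15 genes whose products are reported to act with Efhd2 none passed, with a median of -0.02 and 1 at an unadjusted p under 0.05. This was Cfl2, the muscle cofilin (0.14 ± 0.05 log2, SE; adjusted p = 0.336), while the widely expressed cofilin Cfl1 differed by 0.03 ± 0.04. The largest difference after Cfl2 was that of Cdk5r1, an activator of the kinase Cdk5, at 0.13 ± 0.13. It ranged from 0.04 to 0.22 with 1 array left out and was at -0.004 with array weights, so its direction is not settled. Of the B cell genes among them, Cd79a and Cd79b differed by -0.03 ± 0.11 and -0.05 ± 0.12 log2.

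**Figure D3:**
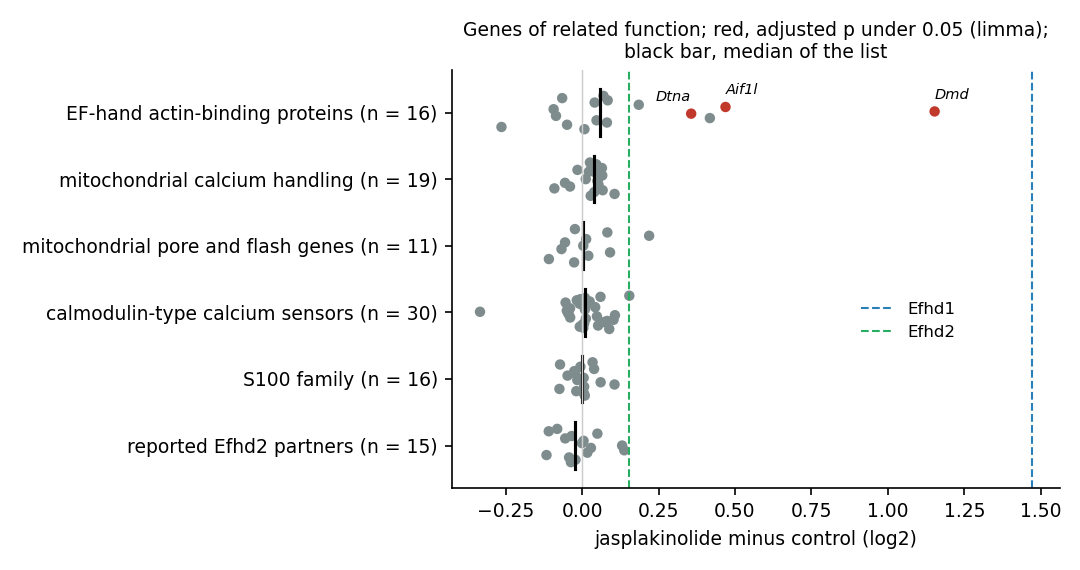
Log2 difference, jasplakinolide minus control (horizontal axis), of each measured gene of 6 lists; red points passed the limma test over all genes, black bars are list medians, and dashed lines mark Efhd1 (1.47) and Efhd2 (0.15). The 3 red points, Dmd, Aif1l and Dtna, are in the list of EF-hand proteins that bind actin or the cortical cytoskeleton, and the other 5 lists have none.

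The nearest genes with a value around Efhd1 on its chromosome did not pass the test. The 5 nearest genes with a value on either side, in the order of the RefSeq gene table, ran from Ecel1, Prss56, Chrnd, Chrng and Eif4e2 to Gigyf2, Kcnj13, Snorc, Ngef and Neu2. None of the 10 passed in the limma fit, 1 had an unadjusted p under 0.05, and their log2 differences lay between -0.02 and 0.14, with a median of 0.05. Eif4e2, a cap-binding protein, differed by 0.06 ± 0.04 log2 (SE) and Gigyf2, its partner in translational repression, by -0.02 ± 0.05. The largest was that of the potassium channel gene Kcnj13 (0.14 ± 0.06; adjusted p = 0.514). Kcnj13, Chrnd, Neu2 and Snorc lay below the guide to dim signal, so their lack of change says little. Around Efhd2, from Agmat, Dnajc16, Casp9, Cela2a and Ctrc to Fhad1, Tmem51, Tmem51os1, Kazn and Prdm2, none of 10 passed and 1 had an unadjusted p under 0.05. Their log2 differences lay between -0.14 (Tmem51; 0.06 SE; adjusted p = 0.560) and 0.10 (Ctrc), with a median of 0.00. The genes directly adjacent to each swiprosin had no value. In the gene order, the first with a value was number 2 on either side of Efhd1. It was number 3 on either side of Efhd2, and Prdm2 was number 19. Each swiprosin had a larger absolute difference than any of its 10 neighbours with a value. For Efhd1 this follows from its choice as a gene with a large rise, and nothing is read from it. For Efhd2 (0.15) and Tmem51 (-0.14) the sizes lie within their standard errors of each other.

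**Figure D4:**
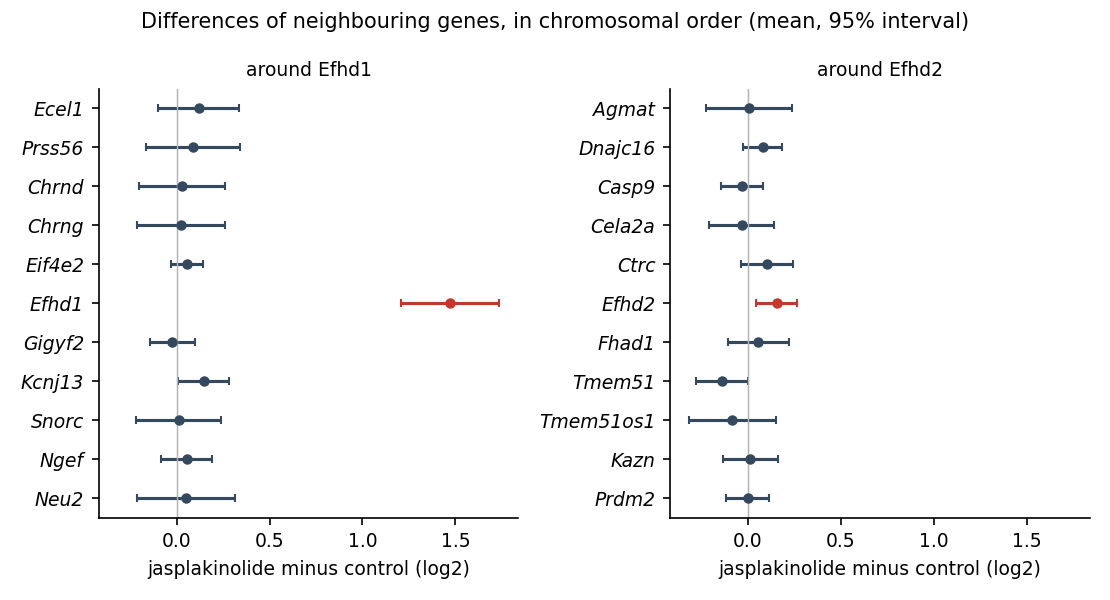
Log2 difference, jasplakinolide minus control, with its 95% interval (horizontal axis, limma) for Efhd1 and Efhd2 (red) and the 5 nearest measured genes on either side in chromosomal order (dark; order only, not to scale). Efhd1 lies at 1.47 among neighbours between -0.02 and 0.14, and Efhd2 at 0.15 among neighbours between -0.14 and 0.10.

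Markers of smooth muscle and of other cell types were measured on the same arrays. The mean level of the 8 smooth muscle markers was 10.2 to 10.4 log2 in control and 10.7 to 10.9 with jasplakinolide, and 5 of the 8 rose, where 0.436% of all genes did. The 10 endothelial markers averaged 10.5 to 10.6 and 10.3 to 10.4 log2, and 1 of 10 fell, where 0.336% of all genes did. In the controls the endothelial mean thus lay above that of the smooth muscle markers. Such means rest on different probe sets and chosen markers, so their order does not show which cell type gave more RNA. The 9 macrophage markers, a cell type known for Efhd2, averaged 7.74 to 7.85 and 7.75 to 7.84 log2, and 0 of 9 passed. Fibroblast markers averaged 8.21 to 8.41 and 8.09 to 8.21 log2, B cell markers 5.92 to 6.26 and 5.90 to 6.12, and neuronal and glial markers 6.91 to 7.12 and 6.91 to 7.17. None of these 16 genes passed, and Ms4a1, Cd79a, Lum, Dpt, Snap25, Syt1 and S100b were at or below the olfactory receptor guide. The part of the cell makeup in the swiprosin differences was not tested.

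Without control 2 and jasplakinolide 4, the highest arrays on the first principal component, the log2 difference of Efhd1 was 1.37 and that of Efhd2 0.15 (adjusted p = 0.362). With any 1 array left out, Efhd1 differed by 1.38 to 1.58 log2, and Efhd2 by 0.13 to 0.18 (adjusted p 0.243 to 0.642).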

How the data were processed

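Log2 expression values were deposited by the authors, who used RMA within Affymetrix Expression Console according to the submitters' processing notes; which versions they ran is not given in the sources used here, and no detection calls were used. RMA equalizes the arrays before probes are summarized, so a shift of the whole transcriptome would not be seen. It also compresses changes of dim genes. The deposited values did not share exactly 1 distribution: array medians lay between 7.30 and 7.39 log2. A further quantile normalization changed the number of genes called from 154 to 299. The platform annotation gave 21789 of 35556 probe sets 1 symbol, 1621 several and 12146 none; the last 2 kinds were dropped. Identifiers of 21698 probe sets were found in the RefSeq gene table, which changed 0 symbols, and 19938 genes remained, unfiltered.

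The comparison used lmFit and eBayes of limma 3.58.1 (R 4.3.3; two-sided; 6 residual and 3.43 prior degrees of freedom) with Benjamini-Hochberg adjustment over all genes. "Rose", "fell" and "passed" mean an adjusted p under 0.05, and intervals are limma's, at 95%. The fit was tested on simulated data. This comparison had no replicate term, so its intervals and p-values are unpaired. Deviations of same-numbered arrays correlated across genes at 0.24 to 0.56 in all 4 pairs. The numbers were therefore taken to pair the arrays for the within-pair differences and the fit with a replicate block. Arrays of unlike number correlated at -0.62 to 0.52. The highest of these, control 2 with jasplakinolide 4 (0.52), exceeded pairs 2 (0.24) and 4 (0.44). The data thus do not settle the pairing of these arrays. The members and lists were chosen with earlier results of these data known. Named by rule were both swiprosins, from each list up to 4 members past the threshold or else the 2 with the largest differences, all neighbours, and the 6 most similar genes by each measure (predicted genes left out). Further list members were named for their function, with their values known. Genes of a list that had no value are not analysed here. Tried in place of these settings were a replicate block, the brighter 75% or 50% of genes, centring on medians, quantile normalization or cyclic loess on top of RMA, a robust prior with an intensity trend, weighted arrays, averaged or separate probe sets, and fewer arrays. With 4 arrays a group, precision is limited. Figures used matplotlib 3.10.9.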

Additional observations from a re-analysis of the deposited data

Results flagged for a closer look

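In 3 of 110 groups of 4 arrays (2.73%; 55 named genes, of which about 1 in 20 groups would be marked by chance), 1 array stood apart from the other 3 by Dixon's criterion. Agmat, a neighbour of Efhd2, was at 6.96 log2 in jasplakinolide 3, against 7.25 to 7.31 in the other treated arrays. S100a7a was at 7.29 log2 in control 3, against 7.49 in the other controls. Vdac2 was at 12.5 log2 (12.52) in control 1, against 12.35 to 12.37 in the other controls. Neither swiprosin had such an array in either group.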

How the results depend on the processing

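Efhd1 stayed higher and past the threshold, and Efhd2 higher and short of it, under every alternative run. As Efhd1 was chosen for its difference on these same arrays, its passing again is a description and supports nothing. Outside the fits with 1 array left out, the log2 difference of Efhd1 lay between 1.37 and 1.49 and that of Efhd2 between 0.15 and 0.17, including the fit without control 2 and jasplakinolide 4, which was chosen after seeing the data. The replicate block gave an adjusted p of 0.0123 for Efhd1 and 0.204 for Efhd2. The number of genes changed was 377 with the replicate block, 296 among the brighter 50% of genes and after cyclic loess, 299 after a further quantile normalization, 358 with an intensity trend and robust prior, 457 with array weights, and 43 to 150 with 1 array left out. In the list of pore and flash genes 1 gene, Mfn2, passed with the replicate block, among the brighter 75% and 50% of genes, after median centring, quantile normalization and cyclic loess, with an intensity trend and with array weights. With 1 array left out Mfn2 passed in 0 of 8 fits (limma adjusted p 0.0674 to 0.207). In the list of calmodulin-type sensors 1 gene, Gca, passed with the replicate block, among the brighter 50%, after quantile normalization and cyclic loess, and with an intensity trend. It also passed in 0 of 8 fits with 1 array left out (limma adjusted p 0.0971 to 0.254). The block changed no other call among the lists or named genes. Some genes most like the swiprosins also switched. Of 10 alternatives other than leaving out 1 array, Abcc1 and Tubb6 passed in 5 each, Sra1 in 4 and Tnks1bp1 in 2. With 1 array left out these 4 genes passed in 0 of 8 fits. Fhl1 and Zdhhc14 kept their calls in 9 of the 10 alternatives. Without detection calls, signal over background limits what can be said of dim genes.

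14 named genes changed sign under some alternative: Cdk5r1 of the lists, Trmt2a among the genes most like Efhd2, and 12 chromosomal neighbours. None passed the test in any fit (lowest adjusted p 0.340 in limma), so their directions are not settled, and the cause was not tested. The log2 difference turned after median centring for Prdm2 (0.0135). It turned after a further quantile normalization for Agmat (-0.0115), Prdm2 (0.0102) and Snorc (-0.0173). After cyclic loess it turned for Agmat (-0.0121), Chrnd (-0.00055), Kazn (-0.000158), Prdm2 (0.00559) and Snorc (-0.0164). With array weights it turned for Cdk5r1 (-0.00369), Chrnd (-0.00391), Chrng (-0.0337), Kazn (-0.0549), Ngef (-0.0118) and Snorc (-0.0134), and with the mean of probe sets for Fhad1 (-0.0252). Without control 2 and jasplakinolide 4 it turned for Gigyf2 (0.0127) and Kazn (-0.0527). With 1 array left out its range crossed 0 for Agmat (-0.0525 to 0.0893), Cela2a (-0.0736 to 0.0216), Chrnd (-0.0386 to 0.114), Chrng (-0.0658 to 0.102), Gigyf2 (-0.0488 to 0.0174), Kazn (-0.0471 to 0.0462), Neu2 (-0.0395 to 0.132), Prdm2 (-0.0293 to 0.0212), Snorc (-0.0594 to 0.0928), Tmem51os1 (-0.18 to 0.00949) and Trmt2a (-0.00471 to 0.0406).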
